A study of Homo sapiens with 17 samples.

Results

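This account follows 10 genes of semaphorin signalling in a human colon cancer cell line, out of 26457 genes in the deposited expression table. They are the ligands SEMA7A, SEMA3A, SEMA3B, SEMA3C, SEMA3F, SEMA4A, SEMA4B and SEMA6A, the plexin PLXNA1 and the neuropilin NRP1, and each was found by its gene symbol in a single row of the table. The genes were chosen by their normalized reads and differences in these same 8 libraries, so their levels, differences and calls are a description and carry no p-value. The study asked how mutant p53 (mutp53) and long exposure to the inflammatory cytokine TNF-α act together on transcription.

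The libraries were strand-specific mRNA-seq from SW480, a colon cancer line that carries mutp53. All cells held an inducible short hairpin RNA and were grown with puromycin and doxycycline. The control cells carried a hairpin against LacZ, a bacterial gene that human cells lack, and the mutp53-depleted cells carried a hairpin against p53. TNF-α (12.5 ng/ml) was given to each line for 0 h or 16 h, which gave 4 groups of 2 biological replicates, called libraries A and B here. The sources used here do not say whether a hairpin line was a single clone, and with 1 line per hairpin the effect of the depletion and other differences between the lines cannot be told apart.

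Semaphorins are secreted or membrane-bound proteins first known for steering growing axons, and many cell types use them to control adhesion, migration and the cytoskeleton. Plexins are their main receptors. Most of the secreted class 3 semaphorins also need a neuropilin, which binds the ligand and passes it to a plexin, often of the A class. Semaphorin 7A is held to the membrane by a lipid anchor and signals through an integrin and through plexin C1. Class 3 semaphorins such as SEMA3B and SEMA3F are known as restrainers of tumour growth and vessel growth, and neuropilin 1 is also a co-receptor for vascular endothelial growth factor.

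Values are normalized reads, which are reads assigned to the exons of a gene times 1 scaling factor per library. Between 6108488 and 13809578 reads fell on genes in a library, so 1 read was worth 0.67 to 1.515 normalized reads. NFKBIA and TNFAIP3, feedback inhibitors of NF-κB, were higher at 16 h of TNF-α in every library of both lines. Their rise was smaller in depleted cells. The mean of NFKBIA rose 13.8-fold in control and 5.11-fold in depleted cells, and that of TNFAIP3 73.9-fold and 16.4-fold. The 7 colon epithelial markers (EPCAM, KRT8, KRT18, KRT19, CDH1, CDX2 and VIL1) were all detected in the control cells, and their summed level was 66176 to 70708 normalized reads per library in control cells at 0 h, 56292 to 56382 in control cells at 16 h, 52452 to 52479 in depleted cells at 0 h and 42726 to 43889 in depleted cells at 16 h. VIL1, an actin-bundling protein of the intestinal brush border, differed most with depletion. It was 545 and 480.2 normalized reads in untreated control cells and 8.71 and 12.3 in untreated depleted cells. The other markers had log2 differences with depletion at 0 h of -1.29 (EPCAM), -0.815 (CDH1), -0.525 (KRT18), -0.31 (KRT8), 0.12 (CDX2) and 0.26 (KRT19). The 11 markers of leukocytes, endothelium, fibroblasts and neurons summed to 60.6 to 74.0 normalized reads in the control libraries and 140.0 to 177 in the depleted ones, with PTPRC, DCN, NEFL and RBFOX3 at 0 in every library. The depleted line also differed over stretches of chromosomes. The median log2 difference of the tested genes at 0 h was -0.63 on chromosome 7, 0.45 on chromosome 3 and 0.565 on chromosome 12. It varied along a chromosome. On chromosome 3 the median of 50 neighbouring genes was -0.01 around SEMA3F and 0.395 around the plexin gene PLXND1. That median is therefore given beside the depletion values of the listed genes. The part of marker levels and of neighbouring genes in any result below was not tested.

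**Figure D1:**
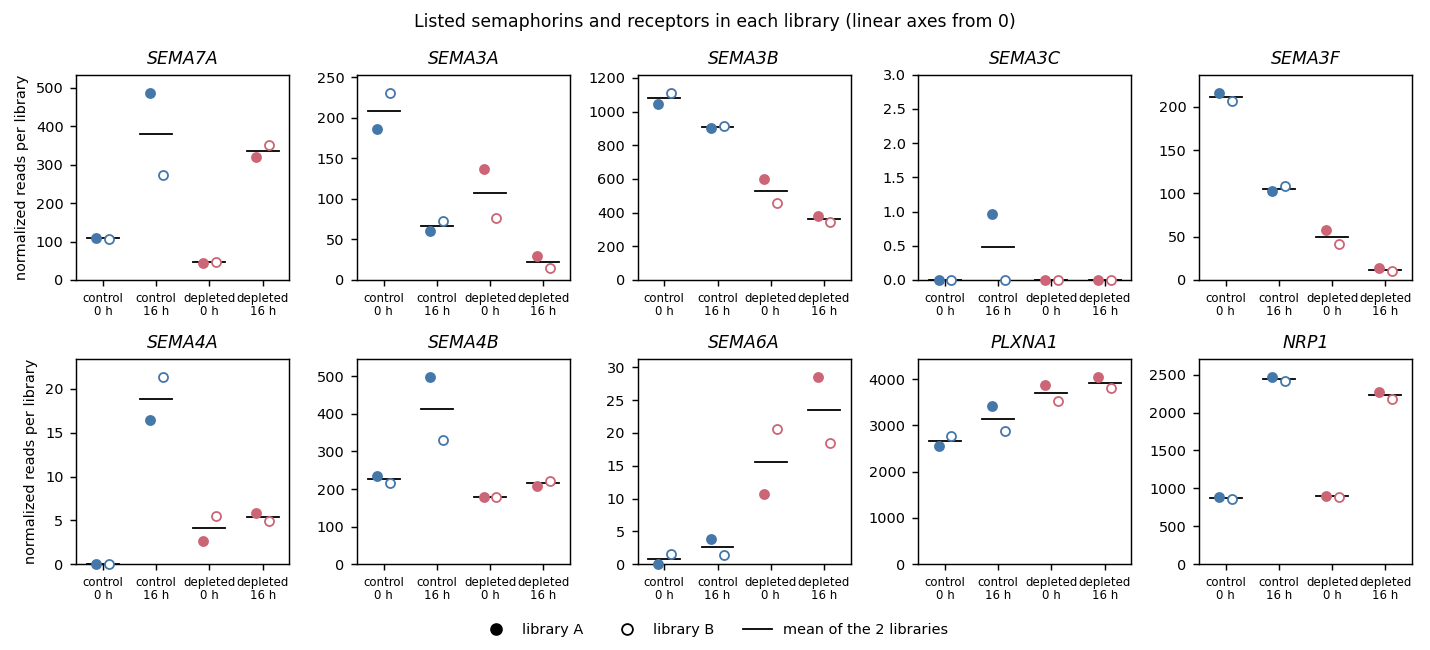
Normalized reads of the 10 genes in each of the 8 libraries, on linear axes that start at 0, with libraries A (filled) and B (open) of each group and a line at their mean. SEMA7A and NRP1 are higher at 16 h in every library of both lines, and the 4 depleted libraries of SEMA3B and SEMA3F lie under all 4 control libraries.

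Differences between groups were estimated with limma on log2(value + 1) over the 14800 genes whose mean reached 2.5 normalized reads. A call needed an adjusted p (Benjamini-Hochberg) under 0.05 and a change of at least 2-fold on that scale. SEMA3C did not pass the filter, so 9 of the 10 genes were fitted. TNF-α in control cells called 4 of them (SEMA7A, SEMA4A and NRP1 higher, SEMA3A lower), where 7.24% of all tested genes were called, 2.97% higher and 4.27% lower. TNF-α in depleted cells called 4 (SEMA7A and NRP1 higher, SEMA3A and SEMA3F lower), against 6.36% of all tested genes, 1.86% higher and 4.5% lower. Depletion at 0 h called 6 (SEMA4A and SEMA6A higher, SEMA7A, SEMA3A, SEMA3B and SEMA3F lower), against 15.4%, with 5.89% higher and 9.55% lower. Depletion at 16 h called 5 (SEMA6A higher, SEMA3A, SEMA3B, SEMA3F and SEMA4A lower), against 15.2%, with 5.03% higher and 10.2% lower. The interaction, which is the TNF-α response of depleted cells less that of control cells and was called on the adjusted p alone, called 2 (SEMA7A positive, SEMA4A negative), against 2.86%, with 0.655% positive and 2.21% negative. Because the genes were chosen with these contrasts known, nothing is read from the comparison of these counts with the shares. The TNF-α and depletion contrasts also share libraries, so a low value in 1 group enters more than 1 contrast.

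SEMA7A, the membrane-anchored semaphorin of the set, was low before TNF-α and higher after it in both lines. It measured 109.59 and 107.56 normalized reads in the control 0 h libraries and 485.3 and 273.15 at 16 h. The depleted libraries measured 44.9 and 47.99 at 0 h and 319.42 and 351.72 at 16 h. No 16 h library overlapped a 0 h library. The depleted libraries lay under the control libraries at 0 h but inside the range of the control libraries at 16 h.

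The log2 difference of SEMA7A with TNF-α was 1.74 ± 0.19 (SE) in control cells, a 3.49-fold difference of means. In depleted cells it was 2.83 ± 0.19. The 0 h level was 2.34-fold lower in depleted cells, with a log2 difference of -1.21 ± 0.19 where the neighbouring genes had a median of -0.20. At 16 h the log2 difference between the lines was -0.12 ± 0.19, beside neighbouring genes at -0.26, and was not called. The wider response of depleted cells (interaction 1.09 ± 0.27 on the log2 scale) thus sat beside a lower starting level and end levels that overlapped between the lines.

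The control libraries at 16 h were the least alike for this gene. Library A was 0.83 above library B on the log2 scale, and only 0.031% of the 9679 genes compared in that group had an A minus B difference at least as high. Without library B of that group the SEMA7A interaction was 0.68 and was not called, and without library A it was 1.50 and was called. The difference between the lines at 16 h was 0.29 without library A and -0.53 without library B, so its sign rests on which library is kept. The interaction of SEMA7A was called under 6 of the 17 alternatives, and was not called by edgeR's quasi-likelihood test (1.04) or by DESeq2 (1.07) on the recovered reads. Its TNF-α responses and its difference at 0 h kept their calls under every alternative run.

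SEMA7A lies on chromosome 15 from 74701630 to 74726299 on the minus strand in hg19 coordinates of the table, with an exon length of 3360 bases. RefSeq promoter windows (250 bases before an annotated start, assembly GRCh38.p14) were held for 7 of the 10 genes, in 20 windows. SEMA3A, SEMA6A and NRP1 had no entry. The SEMA7A window that overlaps no annotated exon is shown because this gene carried the largest TNF-α response of the set in depleted cells, with capitals marking its match to GGGNTTTCC. It is at chr15:74433959-74434208, minus strand, GRCh38.p14, written 5′ to 3′.
SEMA7A upstream window: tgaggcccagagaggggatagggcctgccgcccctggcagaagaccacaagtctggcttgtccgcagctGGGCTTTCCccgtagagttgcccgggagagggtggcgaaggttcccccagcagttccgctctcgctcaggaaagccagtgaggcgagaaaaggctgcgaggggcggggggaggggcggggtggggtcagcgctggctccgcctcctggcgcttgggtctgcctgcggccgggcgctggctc

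The match lies 181 to 173 bases before the start, and the window is 70.0% G or C where the median of all windows is 58.0%. GGGNTTTCC was chosen after the window had been read, and 1.66% of all 35116 windows hold it on either strand. The NF-κB consensus, which differs from it in letters, was searched on both strands and is in 5.21% of all windows. It is in no window of SEMA7A and in 1 window each of SEMA3B, SEMA3F and SEMA4A. These are matches of letters only, and the binding libraries of the series were not analysed here.

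SEMA4A and SEMA4B are transmembrane semaphorins that act on neighbouring cells through plexins. SEMA4A (chromosome 1, 156123369 to 156147542, plus strand) was near the limit of detection. It had 0 reads in both control libraries at 0 h and 17 and 15 reads at 16 h, which are 16.43 and 21.34 normalized reads. Its depleted libraries had 2.68 and 5.48 normalized reads at 0 h and 5.87 and 4.94 at 16 h. The control libraries at 16 h were above all 6 others.

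Against a floor of 3 reads in each 0 h library, SEMA4A was at least 5.62-fold higher at 16 h in control cells, and at least 1.21-fold higher in depleted than in control cells at 0 h. The depleted cells had a log2 difference of 0.39 ± 0.60 with TNF-α, and at 16 h they were 3.49-fold below the control cells. The neighbouring genes had median depletion differences of -0.17 at 0 h and -0.36 at 16 h. The depletion call at 16 h was lost under 7 of 16 alternatives, DESeq2, removal of the neighbours' median and leaving out any of the 4 libraries at 16 h among them, and the call at 0 h under 2. The interaction of SEMA4A (-3.92 ± 0.84 on the log2 scale) rests on the control libraries with no read, and its size moves with the pseudocount and tool, from -7.08 to -2.04. Its call was lost with DESeq2 and without library B of the control 16 h, the depleted 0 h or the depleted 16 h group, and it has no value where a mean of 10 is required.

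SEMA4B (chromosome 15, 90744562 to 90772892, plus strand) was detected throughout. It measured 234.41 and 216.64 normalized reads in the control 0 h libraries, 497.87 and 330.06 at 16 h, and 178.25 to 220.91 in the 4 depleted libraries. Both control libraries at 16 h stood above the 6 others, and they differed from each other by 0.59 on the log2 scale, and 0.207% of the genes compared had an A minus B difference at least as high. The log2 difference with TNF-α was 0.84 ± 0.15 in control cells and 0.26 ± 0.15 in depleted cells, both under the 2-fold line. Depletion at 16 h gave -0.91 ± 0.15 beside neighbouring genes at -0.06. Without library B of the control 16 h group, the TNF-α response of control cells (1.14) and the depletion difference at 16 h (-1.21) passed the threshold, and the interaction did too (-0.88).

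SEMA3A, SEMA3B, SEMA3C and SEMA3F belong to class 3, secreted ligands that mostly act through neuropilin and plexin A receptors. Of these, SEMA3A, SEMA3B and SEMA3F were lower in depleted cells at both times. SEMA3F and SEMA3B lie near each other on chromosome 3, SEMA3F from 50192848 to 50226508 and SEMA3B from 50306593 to 50314602, both on the plus strand. SEMA3F measured 215.54 and 206.03 normalized reads in the control 0 h libraries and 102.47 and 108.12 at 16 h. After depletion the libraries held 57.63 and 41.13 at 0 h and 14.25 and 9.87 at 16 h. The groups did not overlap, and the level was lowest where depletion and TNF-α were combined.

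The SEMA3F difference with depletion was -2.09 ± 0.23 on the log2 scale at 0 h and -3.05 ± 0.23 at 16 h, while the neighbouring genes had medians of -0.01 and 0.06. With TNF-α it was -0.995 ± 0.233 in control cells, just short of the 2-fold line and called under 3 of 16 alternatives, and -1.95 ± 0.23 in depleted cells. The interaction was -0.95 ± 0.33 and was not called.

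SEMA3B measured 1046.5 and 1108.95 normalized reads in the control 0 h libraries and 900.02 and 914.78 at 16 h. The depleted libraries measured 599.76 and 459.34 at 0 h and 380.62 and 341.85 at 16 h. All depleted libraries lay under all control libraries. The log2 difference with depletion was -1.04 ± 0.10 at 0 h, a 2.04-fold lower mean, and -1.33 ± 0.10 at 16 h, with neighbouring genes at -0.01 and 0.04. TNF-α differences were smaller, -0.25 ± 0.10 in control and -0.54 ± 0.10 in depleted cells, and were not called. The call at 0 h was lost when library B of the control 0 h group (-0.99) or of the depleted 0 h group (-0.84) was left out.

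SEMA3A, which repels axons and endothelial cells through neuropilin 1, lies on chromosome 7 from 83587659 to 83824217 on the minus strand. It measured 185.79 and 230.27 normalized reads in the control 0 h libraries and 59.94 and 72.56 at 16 h. Its depleted libraries had 137.37 and 76.78 at 0 h and 29.34 and 14.81 at 16 h. Every 16 h library was below every 0 h library, and library A was near the level of B in the control groups but well above it in the depleted groups.

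The TNF-α difference of SEMA3A was -1.63 ± 0.29 on the log2 scale in control cells and -2.24 ± 0.29 in depleted cells, a 3.14-fold and a 4.85-fold fall of the mean. Depletion gave -1.002 ± 0.289 at 0 h beside neighbouring genes at -0.44, and -1.61 ± 0.29 at 16 h beside -0.40. The depletion call at 0 h stood at the edge of the threshold and was lost under 6 of 17 alternatives. With the neighbouring genes' median removed it was -0.56, and without library B of the depleted 0 h group it was -0.59. SEMA3C, on the same chromosome from 80371854 to 80548667, had 1 read in library A of the control 16 h group and 0 in the 7 others, so no change could be seen at this depth.

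SEMA6A, a transmembrane semaphorin that binds plexins of the A class, was the only fitted ligand of the set called higher in depleted cells at both times. It lies on chromosome 5 from 115779251 to 115910622 on the minus strand. It measured 0 and 1.51 normalized reads in the control 0 h libraries and 3.87 and 1.42 at 16 h. After depletion the libraries held 10.72 and 20.57 at 0 h and 28.5 and 18.51 at 16 h. Every depleted library was above every control library, though the control values come from at most 4 reads in a library.

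The log2 difference of SEMA6A with depletion was 3.33 ± 0.61 at 0 h and 2.81 ± 0.61 at 16 h, with neighbouring genes at 0.28 and 0.30. Counted in reads over the group, the control cells had 1 read at 0 h, and the ratio of depth-adjusted reads was 28.4 with an exact counting interval of 4.74 to 1159. At 16 h the mean was 8.89-fold higher in depleted cells. The depletion calls held under every alternative run. TNF-α differences (1.12 ± 0.61 and 0.59 ± 0.61) were not called.

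NRP1, the receptor that hands class 3 semaphorins to plexins, was called with TNF-α in both lines and in neither depletion contrast. It lies on chromosome 10 from 33466419 to 33623833 on the minus strand. It measured 885.39 and 857.46 normalized reads in the control 0 h libraries and 2466.12 and 2417.12 at 16 h. The depleted libraries measured 898.63 and 889.88 at 0 h and 2273.67 and 2180.67 at 16 h. The 0 h libraries of both lines lay within 857.46 to 898.63, and every 16 h library was at 2180.67 or above.

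The TNF-α difference of NRP1 was 1.49 ± 0.07 on the log2 scale in control cells, a 2.80-fold rise of the mean, and 1.32 ± 0.07 in depleted cells, a 2.49-fold rise. Depletion gave 0.04 ± 0.07 at 0 h and -0.13 ± 0.07 at 16 h, beside neighbouring genes at 0.17 and 0.11. The interaction was -0.17 ± 0.10 and was not called.

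PLXNA1, the signalling plexin that pairs with neuropilins, was abundant in every library. It lies on chromosome 3 from 126707437 to 126756235 on the plus strand. It measured 2562.55 and 2769.33 normalized reads in the control 0 h libraries and 3419.32 and 2878.07 at 16 h. Its depleted libraries had 3871.95 and 3534.84 at 0 h and 4041.79 and 3804.76 at 16 h. All depleted libraries were above all control libraries, by 0.47 ± 0.08 on the log2 scale at 0 h and 0.32 ± 0.08 at 16 h, both under the 2-fold line, with neighbouring genes at 0.09 and 0.14.

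**Figure D2:**
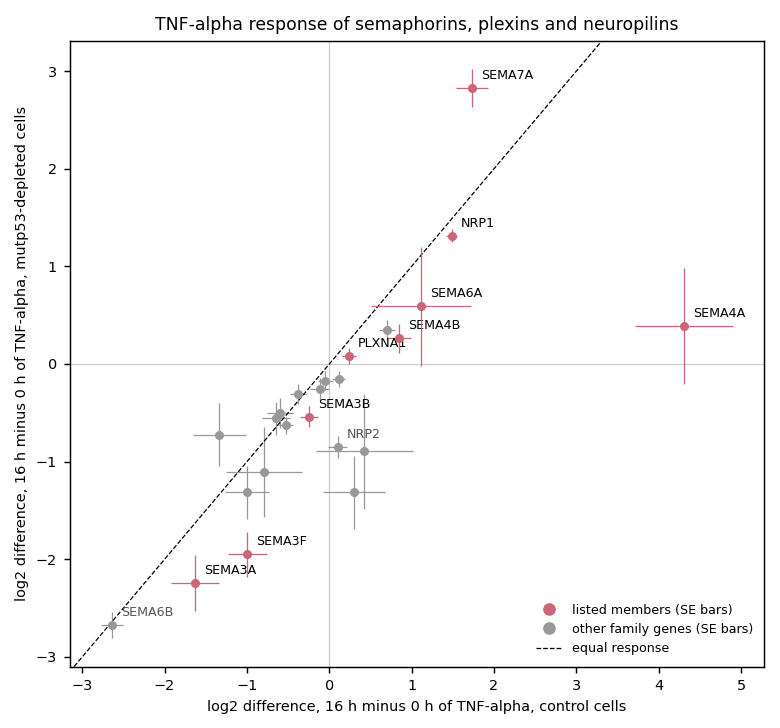
Log2 difference between 16 h and 0 h of TNF-α in control cells (horizontal) and in mutp53-depleted cells (vertical) for the fitted semaphorins, plexins and neuropilins, with bars of 1 SE on each axis and a dashed line of equal response. SEMA7A lies above the line at 1.74 and 2.83, SEMA4A far to the right of it at 4.30 and 0.39, and NRP1 close to it at 1.49 and 1.32.

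To compare genes with each other, levels were divided by exon length, as normalized reads per kb of exon. In control cells at 0 h, SEMA3B was the highest semaphorin at 386 per kb and made up 30.8% of the summed level of the family. SEMA3F (60.3) and SEMA4B (59.9) overlapped each other, while SEMA3A (36.9) and SEMA7A (32.3) were lower and did not overlap. At 16 h in control cells SEMA7A reached 113 per kb and overlapped SEMA4B at 110.0, while SEMA3F stood at 30.1 and SEMA3A at 11.8. SEMA7A ranked 4 in the family at 16 h in both lines. Its 113 per kb in control cells was 9.7% of a summed level of 1167. Its 99.9 per kb in depleted cells was 16.5% of a summed level of 604.3. In depleted cells at 16 h SEMA3A, SEMA3F and SEMA6A, with means from 3.40 to 3.91, overlapped each other. There SEMA4G also overlapped SEMA3A, and SEMA6C overlapped SEMA6A.

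**Figure D3:**
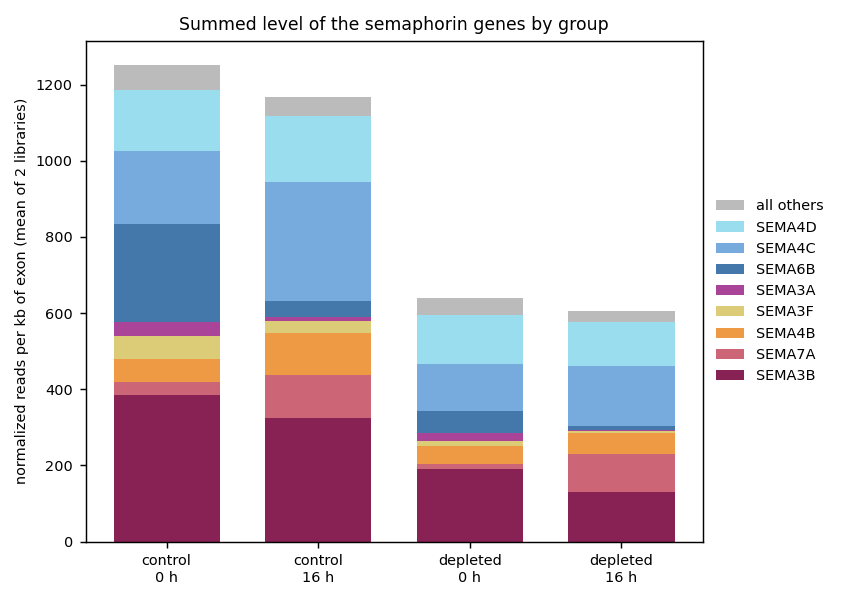
Summed level of the semaphorin genes in each group, as normalized reads per kb of exon and the mean of 2 libraries, stacked by gene on an axis from 0. The stack is 1252 per kb in control cells and 639.5 in depleted cells at 0 h, and 1167 and 604.3 at 16 h. The share of SEMA7A is 2.6% in control cells and 2.2% in depleted cells at 0 h, and 9.7% and 16.5% at 16 h.

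The summed level of the whole semaphorin family was 1252 per kb in control cells and 639.5 in depleted cells at 0 h, and 1167 and 604.3 at 16 h. The listed ligands supplied 45.9% and 45.1% of it at 0 h and 51.1% and 49.4% at 16 h, so the sum differed between the lines with little change in their share. Among the receptors NRP1 ranked 5 at 149 per kb in control cells at 0 h and 2 at 417 at 16 h, where PLXNB2 led at 781. PLXNA1 was second to PLXNB2 in control cells at 0 h (295 against 808 per kb) and first in depleted cells at 0 h (410.0 against 317).

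**Figure D4:**
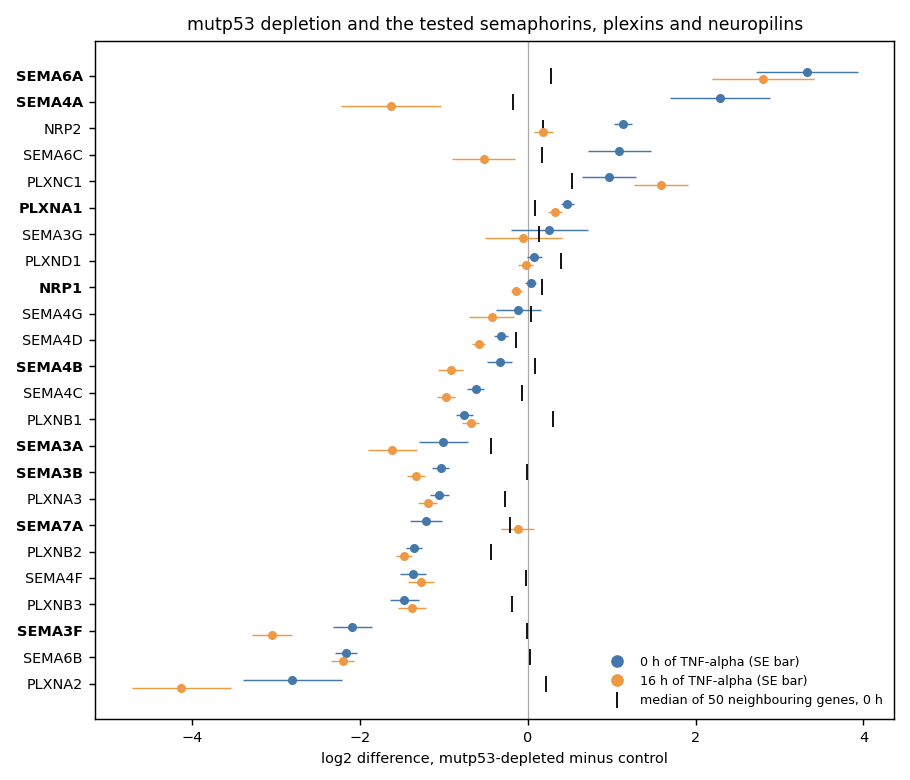
Log2 difference between mutp53-depleted and control cells at 0 h and at 16 h of TNF-α for the fitted semaphorins, plexins and neuropilins (listed genes in bold), with bars of 1 SE and a tick at the median of 50 neighbouring genes at 0 h. SEMA3F lies at -2.09 and -3.05 with its neighbours at -0.01, SEMA6A at 3.33 and 2.81, and SEMA7A moves from -1.21 at 0 h to -0.12 at 16 h.

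The rest of the pathway was taken from 4 lists of known pathway genes. They too were drawn up with earlier results of these data known, so limma's adjusted p, taken over all 14800 genes, is printed for single genes and not as support for a list. Of 62 genes in these lists 55 were tested. TNF-α called 7 in control cells (3 higher, 4 lower), or 12.7% where 7.24% of all tested genes were called, and 7 in depleted cells (2 higher, 5 lower), or 12.7% against 6.36%. Depletion called 18 at 0 h (5 higher, 13 lower), or 32.7% against 15.4%, and 23 at 16 h (3 higher, 20 lower), or 41.8% against 15.2%. The interaction called 5, all negative, or 9.09% against 2.86%. The median log2 difference with depletion at 16 h was -0.52 over these 55 genes and -0.01 over all tested genes.

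Of the 12 other semaphorins 7 were tested, and SEMA6B, a transmembrane ligand for plexins of the A class, was called in all contrasts but the interaction. It measured 1024 and 1002.9 normalized reads in the control 0 h libraries, 170.14 and 155.07 at 16 h, 220.47 and 230.35 in depleted cells at 0 h and 38.57 and 30.85 at 16 h. It fell with TNF-α by 2.63 ± 0.13 on the log2 scale in control cells (limma adjusted p = 5.18e-11) and by 2.67 ± 0.13 in depleted cells (limma adjusted p = 7.04e-11), and with depletion by 2.16 ± 0.13 at 0 h (limma adjusted p = 3.38e-10). SEMA6B and the listed SEMA6A, both of class 6, thus had differences of opposite sign with depletion. SEMA4F fell with depletion at both times (-1.37 at 0 h, limma adjusted p = 6.52e-07). SEMA4G and SEMA6C were called lower with TNF-α in depleted cells alone, the latter call being lost under 3 alternatives. In control cells SEMA4G had -0.998, just short of the 2-fold line, and SEMA6C 0.30. SEMA6C rose with depletion at 0 h (1.09, limma adjusted p = 0.0208), a call lost under 5 alternatives.

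Of the 9 other receptors 8 were tested, and depletion called 5 at 0 h and 5 at 16 h, or 62.5% each time where 15.4% and 15.2% of all tested genes were called. PLXNA2, PLXNA3, PLXNB2 and PLXNB3 fell at both times, though PLXNA2 had at most 5 reads in a depleted library. PLXNB2, a receptor for class 4 semaphorins, fell by 1.35 ± 0.10 on the log2 scale at 0 h (limma adjusted p = 1.75e-09) beside neighbouring genes at -0.43. With that median removed, PLXNB2 and PLXNA3 no longer passed the 2-fold line, and at 0 h PLXNA3 also lost its call without library B of either 0 h group. PLXNC1, the plexin that binds semaphorin 7A, measured 24.67 and 19.69 normalized reads in the control 0 h libraries and 7.73 and 8.54 at 16 h, a fall of 1.34 ± 0.32 on the log2 scale (limma adjusted p = 0.0044), a call lost with DESeq2. PLXNC1 therefore differed with TNF-α in the opposite direction to SEMA7A in control cells, though its 16 h control values come from 8 and 6 reads. Its TNF-α difference in depleted cells was -0.72 ± 0.32 and was not called. It was higher in depleted cells at 16 h (1.59 ± 0.32, limma adjusted p = 0.000447, neighbours 0.51). At 0 h that difference was 0.97 ± 0.32, just short of the 2-fold line, with neighbours at 0.52.

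NRP2, the sister receptor of NRP1, measured 510.91 and 707.48 normalized reads in the control 0 h libraries and 1310.08 and 1336.88 in depleted cells. At 16 h it measured 617.74 and 672.92 in control cells and 770.46 and 700.97 in depleted cells. It rose with depletion at 0 h (1.14 ± 0.11 on the log2 scale, limma adjusted p = 1.31e-07), a call lost with the neighbours' median removed (0.96) and without library A of the control 0 h group (0.90). Its interaction of -0.95 ± 0.16 (limma adjusted p = 0.00184) was called under all alternatives run. The 2 neuropilins thus differed in pattern, NRP1 being higher after TNF-α in both lines and NRP2 higher in untreated depleted cells.

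Among 12 co-receptors, partners and processing enzymes, 11 were tested. ITGA1, which with ITGB1 forms the integrin bound by semaphorin 7A, measured 321.5 and 457.52 normalized reads in the control 0 h libraries and 1102.07 and 1401.33 at 16 h, and 784.04 and 592.34 and then 2219.17 and 1350.11 in depleted cells. It rose with TNF-α in control cells (1.69 ± 0.19, limma adjusted p = 1.43e-06) and in depleted cells (1.34 ± 0.19, limma adjusted p = 2.68e-05), and the latter call was lost without library A of the depleted 16 h group. MET, a receptor kinase that pairs with plexins of the B class, rose with TNF-α in both lines (1.33 and 1.68 on the log2 scale). MST1R and PTK7 fell with depletion at both times. CD72 and L1CAM were called lower at 16 h alone, and the CD72 call was lost under 5 alternatives. At 0 h the log2 differences were -0.98 (CD72) and -0.865 (L1CAM). PTK7 also fell with TNF-α in control cells, by 1.01 on the log2 scale, a call lost under 5 alternatives. Its difference in depleted cells was -0.57 and was not called.

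All 29 intracellular effectors were tested, and depletion called 8 at 0 h and 12 at 16 h, or 27.6% and 41.4% against 15.4% and 15.2% of all tested genes. LIMK1, the kinase that inactivates cofilin, fell by 1.97 ± 0.07 on the log2 scale at 0 h (limma adjusted p = 5.27e-13) beside chromosome 7 neighbours at -0.71. DPYSL3, DPYSL4, SH3BP1 and MICAL1 fell at both times, though the MICAL1 call at 16 h was lost under 5 alternatives and the DPYSL4 call at 0 h under 2. DPYSL4 had at most 3 reads in a depleted library. DPYSL2, DPYSL5, FYN, RRAS and CDK5 were called lower at 16 h alone. RRAS (neighbours -0.68) and CDK5 (neighbours -0.998) lost that call once the neighbours' median was removed. At 0 h the log2 differences were -0.98 (DPYSL2), -0.24 (DPYSL5), -0.73 (FYN), -0.22 (RRAS) and -0.72 (CDK5), all under the 2-fold line. TIAM1, an activator of RAC1, rose with depletion at both times, by 1.71 ± 0.08 on the log2 scale at 0 h (limma adjusted p = 1.75e-11) beside neighbouring genes at -0.30. CRMP1 and RND1 were called higher at 0 h alone and MICAL2 at 16 h alone, with the RND1 call lost under 4 alternatives and the MICAL2 call under 2. At the other time the log2 differences were 0.93 (CRMP1, 16 h), -0.09 (RND1, 16 h) and 0.73 (MICAL2, 0 h). DPYSL2, a collapsin response mediator that acts below semaphorin 3A, fell with TNF-α in both lines (-1.16 and -1.57). DPYSL5 was called lower with TNF-α in depleted cells (-1.56) and not in control cells (-0.59). RND1 was called higher with TNF-α in control cells (1.85) and not in depleted cells (0.35).

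The genes most like SEMA7A were found by Pearson's r of log2(value + 1) over the 8 libraries among 5233 tested genes whose group means spanned at least 1. They were SCARF1 (0.984), EHD1 (0.976), RCSD1 (0.972), SOCS2 (0.970) and GALNT18 (0.966). For NRP1 they were LIMD2, CCL5, PDLIM4, ICAM1 and CLEC1A, with r from 0.994 to 0.996. CCL5 and CLEC1A had a mean of 0 at 0 h in both lines, and at most 12.2 and 20.2 normalized reads at 16 h. RCSD1 had group means of 0 to 10.8, so the r of these genes rests on values near the floor. SEMA7A and NRP1 had r = 0.916 with each other, and SEMA4B had 0.712 with SEMA7A. The 8 libraries form 4 pairs of the same treatment, so these values mostly rank genes by their group means and are a description.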

How the data were processed

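The authors made mRNA-seq from 4 groups of 2 libraries, aligned with STAR and counted with HOMER, per the file headers strand-specifically over exons with genes condensed. The header names hg19 while the methods and labels name hg38, so gene coordinates here are the table's own. The deposited values are a normalized signal, reads times 1 factor per library, and the deposited gene length is exon length in bases. All values gave whole reads within 0.1 read. Between 74.51% and 79.51% of the header totals fell on genes. Columns with the authors' own fold changes and p-values from edgeR were not used, and 13 samples of other assays were not analysed here.

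Genes with a mean of at least 2.5 were fitted with limma 3.58.1 (R 4.3.3) on log2(value + 1), with a mean per group over 8 libraries and Benjamini-Hochberg adjustment over 14800 genes. edgeR 4.0.16 and DESeq2 1.42.0 on recovered reads, median ratio scaling, pseudocounts of 0.1 and 5, no filter, a mean of at least 10, a replicate block, removal of the median of 50 neighbouring genes and leaving out each library were alternatives. The floor was 3 reads in each library, and intervals are exact at 95% and cover counting error only. Scripts were tested on simulated data. The genes and lists were chosen with earlier results of these data known. Named were the 10 genes, pathway genes called in any contrast, and the 5 genes most like SEMA7A and NRP1. The level of the gene targeted by the hairpin is not reported here.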

Additional observations from a re-analysis of the deposited data

Results flagged for a closer look

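The limma interaction test asked whether the TNF-α response differed between the lines, at an adjusted p under 0.05. It called 2 of the 9 fitted listed genes (22.2%) and 5 of the 55 tested pathway genes (9.09%), beside 2.86% of all tested genes. The genes and lists were chosen with earlier results of these data known, so nothing is read from these shares. SEMA7A had an interaction of 1.09 on the log2 scale, from responses of 1.74 in control and 2.83 in depleted cells. SEMA4A had -3.92, from 4.30 and 0.39, with no read in either control library at 0 h. These 2 are a description, since the genes were chosen with these values known. NRP2 had -0.95 (limma adjusted p = 0.00184), from 0.10 and -0.85. TIAM1 had -0.65 (limma adjusted p = 0.00361), from 0.02 and -0.64. The calls of NRP2 and TIAM1 held under all 17 alternatives run. DPYSL5 had -0.96 (limma adjusted p = 0.0185), from -0.59 and -1.56, and lost its call under 6 of 17. DPYSL2 had -0.41 (limma adjusted p = 0.0445), from -1.16 and -1.57, and lost its call under 12 of 17 alternatives. RRAS had -0.93 (limma adjusted p = 0.0484), from 0.95 and 0.02, and also lost its call under 12 of 17. Groups of 2 libraries were too small for a check of single outlying libraries.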

How the results depend on the processing

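Over 105 pairs of a named gene and a contrast, 1635 of 1746 values under an alternative kept their side of the threshold. Of the rest, 105 lost a call, 6 gained a call and 0 calls reversed in sign. Differences that stayed uncalled were not checked for direction, and some changed sign. SEMA7A with depletion at 16 h, for example, ran from -0.53 to 0.29. For TNF-α in either line and depletion at 16 h, the counts of calls stayed within 1.5 times under every alternative run. For depletion at 0 h, leaving out 1 library gave 3 to 6 of the listed genes called, with 3 without library B of the depleted 0 h group. The interaction was the least stable. Leaving out 1 library gave 208 to 421 calls over all tested genes where 424 were called with all libraries, 0 to 2 of the listed genes and 2 to 5 of the other pathway genes. For the listed genes (2 called), DESeq2 gave 0 and edgeR, a mean of at least 10, no filter and a pseudocount of 0.1 gave 1 each. For the other pathway genes (5 called), DESeq2 gave 2, and median ratio scaling, no filter and a pseudocount of 0.1 gave 3. The cause was not tested. Over all tested genes, limma called 1072 for TNF-α in control cells and 941 in depleted cells. For depletion it called 2285 at 0 h and 2255 at 16 h, and for the interaction 424. In the same order, edgeR on the recovered reads called 1076, 939, 2336, 2249 and 456. DESeq2 on the recovered reads called fewer in every contrast, at 805, 681, 1955, 1918 and 293.

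The A minus B differences had correlations of -0.04 to 0.12 between groups over 13124 genes, the highest being between the depleted groups. Such low values give little sign that libraries of the same letter pair, but cannot exclude it. With the replicate block, 8 other pathway genes were called in the interaction in place of 5. SEMA4A has no value where a mean of 10 is required. SEMA3C, SEMA4A and SEMA6A are limited by depth, at 1 to 34 reads in the libraries where they were seen. Among the other pathway genes, PLXNA2 had 0 to 5 and DPYSL4 0 to 3 reads in the depleted libraries. CD72 and RND1 had as few as 3 reads in a library, and PLXNC1 as few as 6.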
